A study of Homo sapiens with 9 samples.

Results

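The genes described here are the numbered zinc finger genes (ZNF genes) that lie outside chromosome 19. They were taken as the protein-coding genes of GENCODE release 44 on GRCh37 whose symbol is ZNF followed by a number and at most 1 letter and that lie on an autosome other than chromosome 19. The rule gave 250 of the 19229 protein-coding genes of chromosomes 1 to 22, on 19 chromosomes, with the most on chromosome 7 (35 genes) and chromosome 16 (30 genes). A further 246 ZNF genes lie on chromosome 19 and 18733 genes are neither, and both sets serve only for comparison.

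BEAS-2B is an immortalized human bronchial epithelial line. KO cells came from CRISPR-Cas9-edited colonies that lacked mdig (RIOX2), a JmjC-domain protein, and WT cells from colonies of the same transfection that kept the protein, and both were selected and grown in blasticidin. H3K9me3, H3K27me3, H3K4me3 and H3R8me2a were each mapped by ChIP-seq in 1 KO and 1 WT library, beside 1 WT input library. With 1 library per mark and genotype there was no replicate, so no difference below carries a test, and each value is a length of genome inside the islands (enriched stretches called on a 200-bp grid) of a library. The islands hold no height, and in a population of cells a longer covered stretch and a larger share of cells carrying the mark cannot be told apart.

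The KO libraries had more covered genome in all 4 marks, at 3.69 times the WT length for H3K9me3, 1.33 times for H3K27me3, 1.15 times for H3K4me3 and 1.61 times for H3R8me2a. No read depth is given for any library. The mdig gene, RIOX2, had H3K4me3 over 2.9 kb of its promoter window in KO and 2.7 kb in WT, and no H3K9me3 in either, which bears on its promoter and not on its protein. Among markers, H3K4me3 stood at the promoters of 5 of 10 epithelial genes (KRT7, KRT8, KRT18, CDH1 and EPCAM), 4 of 4 mesenchymal genes and 1 of 5 leukocyte genes (CD14) in KO and in WT alike. The epithelial genes without it were the basal markers KRT5, KRT17 and TP63, and also KRT19 and GRHL2.

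C2H2 zinc fingers are short repeats in which a pair of cysteines and a pair of histidines hold a zinc ion, and arrays of them read DNA sequence. In many ZNF proteins a KRAB domain at the N-terminus recruits TRIM28 (KAP1), which brings the H3K9 methyltransferase SETDB1 and HP1 proteins to the bound site, mostly at transposable elements. ZNF genes are themselves known targets of H3K9me3, which in many human cell types lies over the 3′ exon that codes for the finger array while the promoter keeps H3K4me3.

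A KRAB domain was found in the predicted protein of 117 of the 250 genes, against 210 of the 246 ZNF genes of chromosome 19. A finger match was found in 240 genes, with a median of 9 fingers over all 250 and a highest number of 36. Of the 116 KRAB genes with a finger match, 114 had all finger-coding bases in the last coding exon. The median gene length was 26.1 kb for the 250 genes and 27.7 kb for the 18733 other genes.

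The finger-coding DNA itself is shown first, because H3K9me3 divided the genes along it. Where neighbouring fingers follow each other without a gap, they form repeat units of 84 bases, made of 21 codons from the first cysteine to the last histidine and 7 linker codons. A unit is given for each of 6 genes, 5′ to 3′ on the coding strand, with the codons of the 4 zinc-binding residues in capitals; each lies in the last coding exon (GRCh37). ZNF10 (chr12:133732631-133732714, + strand) and ZNF445 (chr3:44489621-44489704, − strand) had H3K9me3 on all finger bases in KO and in WT, ZNF425 (chr7:148802138-148802221, − strand) in KO alone, ZNF22 (chr10:45498985-45499068, + strand) in WT alone, and ZNF282 (chr7:148921281-148921364, + strand) and ZNF775 (chr7:150093894-150093977, + strand) in neither.
ZNF10: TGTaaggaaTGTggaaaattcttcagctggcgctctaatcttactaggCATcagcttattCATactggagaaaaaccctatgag
ZNF445: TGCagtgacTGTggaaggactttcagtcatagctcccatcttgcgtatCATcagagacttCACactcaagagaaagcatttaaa
ZNF22: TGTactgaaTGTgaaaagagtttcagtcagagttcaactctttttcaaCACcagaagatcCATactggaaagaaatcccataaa
ZNF425: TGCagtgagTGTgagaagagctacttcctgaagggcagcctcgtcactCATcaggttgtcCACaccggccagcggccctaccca
ZNF282: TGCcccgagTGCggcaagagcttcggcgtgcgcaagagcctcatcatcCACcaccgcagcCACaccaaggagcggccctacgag
ZNF775: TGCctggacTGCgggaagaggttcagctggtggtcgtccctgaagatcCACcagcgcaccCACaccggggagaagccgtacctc

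The 3 units that carried H3K9me3 in WT were poor in G and C, at 40.5% in ZNF10, 42.9% in ZNF445 and 35.7% in ZNF22, against 59.5% in ZNF425, 66.7% in ZNF282 and 64.3% in ZNF775. The dinucleotide CG occurred 1, 1 and 0 times in the first 3 and 3, 8 and 5 times in the others. The same held over the 156 genes with at least 3 units. Of 91 genes whose units held under 45% G and C, 79 had H3K9me3 on finger bases in KO and 79 in WT. Of 25 genes between 45% and 55%, 21 were marked in KO and 17 in WT. Of 40 genes at 55% or more, 15 were marked in KO and 4 in WT.

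The split was present among genes with and without KRAB. Among KRAB genes, finger bases were marked in 63 of 70 genes in KO and 62 of 70 in WT where G and C were under 45%, and in 7 of 18 genes in KO and 1 of 18 in WT where they were at 55% or more. Among genes without KRAB the counts were 16 of 21 in KO and 17 of 21 in WT under 45%, and 8 of 22 in KO and 3 of 22 in WT at 55% or more. The ZNF genes of chromosome 19 had few GC-rich arrays, 17 of 232, of which 8 were marked in KO and 4 in WT. The part of base composition in the recovery and alignment of ChIP fragments was not tested.

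**Figure D1:**
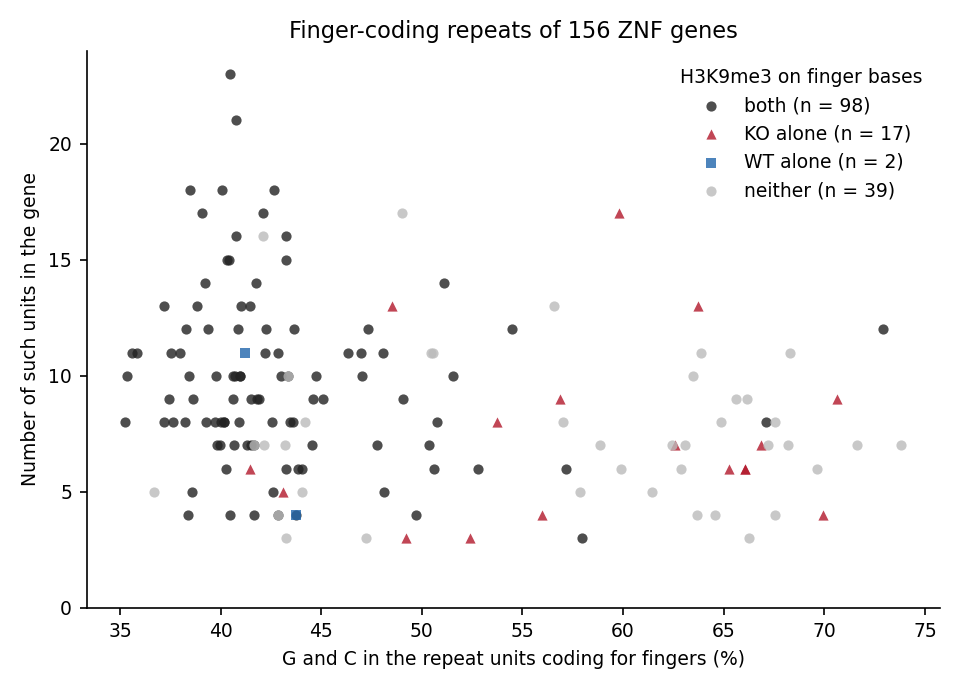
Each point is 1 of 156 ZNF genes outside chromosome 19 with at least 3 repeat units coding for fingers, placed by the G and C content of those units (x axis, %) and their number (y axis), with colour for H3K9me3 on finger bases in KO and WT. Genes marked in both libraries (98 genes) gather at low G and C content, and genes marked in neither (39 genes) mostly lie at high content.

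Over all 240 genes with a finger match, finger-coding bases carried H3K9me3 in 129 genes in KO and 106 in WT, of which 103 were shared. The cover was nearly all or nothing, with all finger bases inside islands in 117 genes in KO and 102 in WT. By length, 61.3% of finger-coding bases were covered in KO and 52.4% in WT. KRAB genes had 80.9% in KO and 73.3% in WT, genes without KRAB 39.4% in KO and 28.8% in WT, and the ZNF genes of chromosome 19 89.2% in KO and 82.6% in WT.

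The number of fingers went with the mark as well. Finger bases were marked in 10 of 53 genes with 1 to 4 fingers in KO and 4 of 53 in WT, in 42 of 80 genes with 5 to 9 fingers in KO and 34 of 80 in WT, in 54 of 76 genes with 10 to 14 fingers in KO and 49 of 76 in WT, and in 23 of 31 genes with 15 or more in KO and 19 of 31 in WT. KRAB genes were fewest in the first bin, at 14 of 53, against 40 of 80, 44 of 76 and 18 of 31 in the others. The rank correlation between finger number and the covered share of the gene body was 0.39 in KO and 0.40 in WT over 240 genes, against 0.07 in KO and 0.10 in WT over 245 ZNF genes of chromosome 19. It was 0.35 in KO and 0.40 in WT over 116 KRAB genes, and 0.24 in KO and 0.25 in WT over 124 genes without KRAB. Genes share libraries and, in clusters, islands, and are no independent replicates.

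Only 3 genes had H3K9me3 on finger bases in WT and not in KO, ZNF22, ZNF25 and ZNF292. ZNF25, a KRAB gene, kept islands nearer its start, with 5.6 kb in KO and 7.6 kb in WT over the body. The 26 genes with the mark on finger bases in KO alone included 11 KRAB genes, among them ZNF425, ZNF777, ZNF746 and ZNF785, and 15 genes without KRAB, among them ZNF469, ZNF618, ZNF462 and ZNF629. ZNF746 (PARIS) is a KRAB protein known as a repressor of PPARGC1A. The median G and C content of the units was 59.8% in these 26 genes (17 with at least 3 units), against 41.5% in the 103 shared genes (98 with at least 3 units) and 61.4% in the 108 genes with no mark on finger bases in either library (39 with at least 3 units).

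Over whole gene bodies H3K9me3 covered 22.3% of bases in KO and 15.5% in WT for the 250 genes, against 6.86% in KO and 1.84% in WT for the other genes. The ratio of KO to WT length was thus 1.44 for the 250 genes, 1.58 for ZNF genes of chromosome 19 and 3.73 for other genes. Among the regions of the 250 genes compared here, the ratio was lowest where WT was most covered. It was 1.17 over finger-coding bases, 1.38 from the gene's midpoint to its 3′ end, 1.51 from the start to the midpoint, and 2.15 over the promoter window of 2 kb on both sides of the start, where other genes had 6.21.

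The mark was present somewhere in the body of 163 genes in KO and 131 in WT, 128 of them shared, and 84 genes had none in either library. At least 50% of the body was covered in 88 genes in KO and 63 in WT, and the whole body in 19 genes in KO and 6 in WT. KRAB genes had 52.3% of their bases covered in KO and 38.6% in WT, and genes without KRAB 10.4% in KO and 6.27% in WT. Genes with another member's start within 250 kb had 57.4% in KO and 43.2% in WT, and lone genes 10.6% in KO and 6.2% in WT. Genes without KRAB but near another member reached 55.3% in KO and 40.4% in WT, close to the 58.1% in KO and 44% in WT of KRAB genes near another member. Among lone genes KRAB went with more cover. The 37 lone KRAB genes had 40.2% in KO and 27.2% in WT, above the lone genes as a whole.

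**Figure D2:**
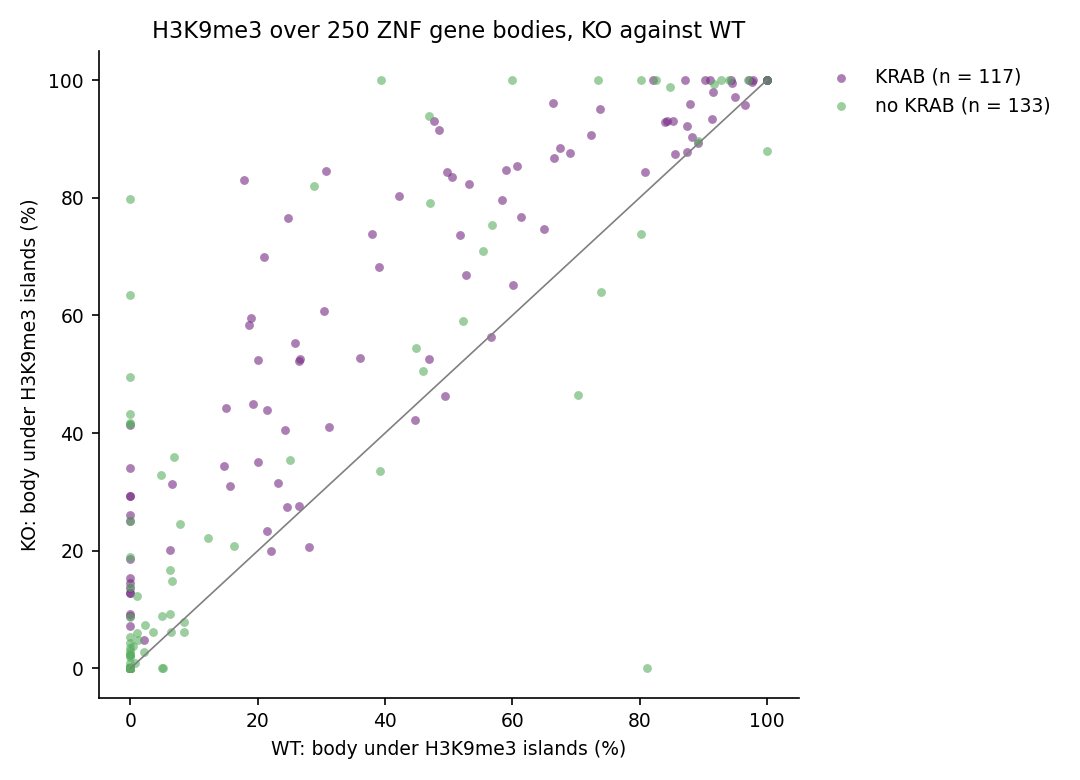
Each point is 1 of the 250 ZNF genes, with the share of its body inside H3K9me3 islands in KO (y axis, %) against WT (x axis, %), coloured by KRAB domain; the line marks equal shares. In 143 genes KO had more covered bases, in 17 fewer, and points at the left edge are genes with no WT island.

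Along the gene, the 117 KRAB genes had their lowest mean H3K9me3 at the start and a broad rise towards the 3′ end in KO and in WT. The first of 20 bins of the body had 31.9% of bases covered in KO and 15.4% in WT, and the highest bins reached 62.4% in KO and 51.5% in WT. Genes without KRAB had 13.8% in KO and 6.77% in WT in the first bin and at most 25.7% in KO and 19% in WT further along. Among 128 genes with the mark in the body of both libraries, the first covered base lay a median of 1.47 kb (quartiles 0 and 6.9 kb) from the start in KO and 5.26 kb (quartiles 1.03 and 15.3 kb) in WT. It was nearer to the start in KO in 89 genes, farther in 12 and at the same base in 27.

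**Figure D3:**
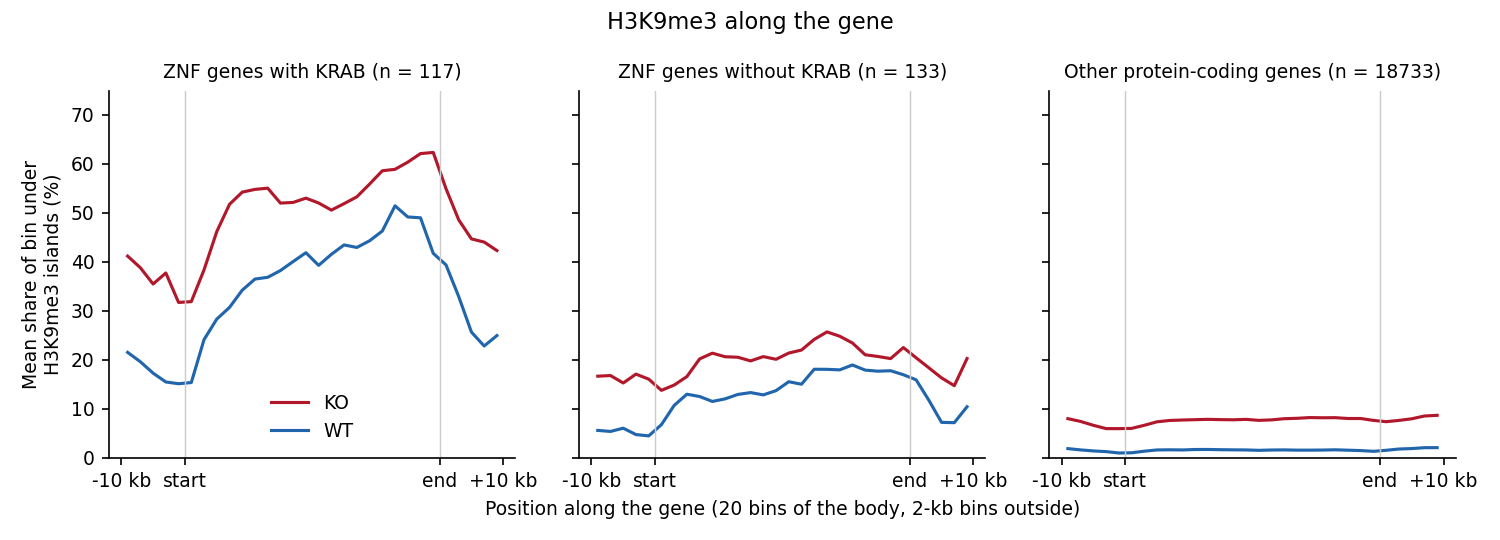
Mean share of each bin inside H3K9me3 islands (y axis, %) along genes of equal drawn length, from 10 kb before the start to 10 kb after the end, for KO and WT; each gene counts equally. KRAB genes dip at the start and are highest near the 3′ end, and the other protein-coding genes are flat at 6.01% to 8.22% in KO and 1.03% to 1.71% in WT within the body.

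A gene was said to gain a mark where KO had at least 2 times the WT bases and at least 1 kb more, and to lose it in the opposite case. H3K9me3 was gained over the bodies of 60 of the 250 genes (24%), where 25.1% of all protein-coding genes met the same rule, and lost over 3 (1.2%), where 0.894% of all genes did. From the midpoint to the 3′ end, 45 genes (18%) gained and 3 (1.2%; ZNF22, ZNF25 and ZNF292) lost it, against 18.3% and 0.671% of all genes. The share of gains was thus near the background, while more of the 250 genes had the mark in WT. Of the 131 genes with some H3K9me3 in WT, 27 gained, against 1437 of 2862 other genes with some in WT. A body covered over most of its length in WT could not reach 2 times that length. Up to 63 of the 131 genes were so placed. The median WT cover was 10.5 kb in the 131 genes and 4.6 kb in the 2862. These shares of gains therefore cannot show whether the mark spread less in the 131 genes. Of the 119 without, 33 gained, against 3273 of 15871 other genes, and 15 of these 33 were KRAB genes out of 35 KRAB genes without the mark in WT.

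The balance of gains and losses changed with the scale. When KO lengths were divided by the KO to WT ratio of the whole library, 21 of the 250 genes gained and 95 lost H3K9me3 relative to the library, against 60 and 3 as deposited. For the other genes the scaled counts were 2316 and 1256, against 4710 and 168. The scaled KO length of a gene cannot exceed its body length divided by 3.69. Genes covered over most of the body in WT, up to 63 of the 250, thus could not gain on this scale. Many of them could only be called lost, even with the whole body covered in KO. The 95 scaled losses therefore do not show that these genes had less of the mark in KO. Near the limit of the rule stood ZNF138, with 17.3 kb in KO and 8.46 kb in WT, just inside it, and ZNF662, with 12.4 kb in KO and 6.2 kb in WT, just outside.

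The largest gain over a body was in ZNF618, a gene without KRAB that has been linked to the reader of hydroxymethylcytosine UHRF2. H3K9me3 covered 64.9 kb in KO and 12.4 kb in WT of its 180 kb (chr9:116638562-116818873). ZNF445, a KRAB protein that helps to keep methylation at imprinted regions, followed with 38.2 kb in KO and 8.2 kb in WT of 46 kb. In WT the island of ZNF445 lay in the 3′ part alone, where 8.2 kb was covered, against 22.2 kb there in KO. ZNF469, the gene mutated in brittle cornea syndrome, had 28.6 kb in KO and none in WT. ZNF713, whose repeat expansion makes a fragile site, had 32.8 kb in KO and 10.4 kb in WT. The matrin-type finger genes ZNF385D and ZNF385B had 21.4 kb and 25.4 kb in KO, against 0 and 4.6 kb in WT, in very long bodies of 961 kb and 420 kb.

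The 3 losses were small in length but removed every island of the gene. ZNF292, a gene of neurodevelopmental disorders, had 0 kb in KO and 5.6 kb in WT, which covered 70.9% of its finger bases. ZNF22 had 0 kb in KO and 3.57 kb in WT of a gene of 4.4 kb. ZNF346, a binder of double-stranded RNA, had 0 kb in KO and 3 kb in WT, off its finger bases.

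ZNF678, ZNF721, ZNF695 and ZNF782 were among the 6 genes with the most H3K9me3 in the 3′ part both in KO and in WT. ZNF678 had 57 kb in KO and 51.2 kb in WT there, ZNF721 36.7 kb in KO and 35.5 kb in WT, and ZNF695 31.3 kb in KO and 25.5 kb in WT. ZNF782 had 25.5 kb in KO and 26.1 kb in WT. ZNF717 had 22.3 kb in KO and 28.5 kb in WT, and ZNF670 had 22.1 kb in both, and these 2 were among the first 6 in WT alone. ZNF273 and ZNF718 entered the first 6 in KO alone, with 29.6 kb and 29.5 kb in KO, against 21 kb and 13.1 kb in WT.

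Members lay in 13 clusters of at least 4 genes with starts under 250 kb apart, which held 77 genes. The share of a cluster under H3K9me3 ranged from 4.16% to 98.6% in KO and from 0% to 90.6% in WT. At the end of the long arm of chromosome 12 (chr12:133494892-133791418), 7 KRAB genes, ZNF10, ZNF26, ZNF84, ZNF140, ZNF268, ZNF605 and ZNF891, sat in a block of which 98.6% was covered in KO and 90.6% in WT. ZNF10 is the gene whose KRAB domain is widely fused to other proteins as a repressor. Its 28.9 kb body was covered over 28.9 kb in KO and 26.1 kb in WT. None of the 7 genes met the rule for gain, for which cover this high in WT left little room.

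By contrast, the 2 clusters with the most members had next to no H3K9me3 in WT. In the larger cluster of chromosome 16 (chr16:30389427-30798526; ZNF48, ZNF629, ZNF688, ZNF689, ZNF747, ZNF764, ZNF768, ZNF771 and ZNF785, 5 of 9 with KRAB) 4.16% was covered in KO and 0% in WT. There ZNF785 had 4.09 kb in KO, ZNF689 5.6 kb and ZNF629 2.2 kb, against 0 kb in WT for each. On the distal long arm of chromosome 7 (chr7:148766733-149194908; ZNF212, ZNF282, ZNF398, ZNF425, ZNF746, ZNF777, ZNF783 and ZNF786, 8 of 8 with KRAB) 12.8% was covered in KO and 0.56% in WT, and 6 of 8 genes gained. ZNF425 had 3 kb in KO, ZNF777 2.75 kb, ZNF746 3.21 kb, ZNF783 5.39 kb, ZNF398 5 kb and ZNF786 6.2 kb, against 0 kb in WT for each. H3K4me3 covered 13.9% of this cluster in KO and 10.4% in WT, and 35.1% of the larger cluster of chromosome 16 in KO and 32.7% in WT.

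The other 2 clusters with 7 members stood between. On chromosome 16 near the end of the short arm (chr16:3162561-3493504) 64.7% was covered in KO and 35.7% in WT, but the genes split sharply, with ZNF75A covered over 13.4 kb and ZNF263 over 17.6 kb in KO and 13.4 kb and 17.2 kb in WT, and ZNF205 and ZNF213 at 0 kb in both. On chromosome 3 (chr3:44473197-44778575) 77.9% was covered in KO and 29.1% in WT. All 7 genes there had their finger bases fully inside islands in KO and in WT, so the difference lay in the stretches between. ZNF35 had 9.88 kb in KO and 3.48 kb in WT, ZNF197 35.2 kb in KO and 16.4 kb in WT, ZNF660 21.5 kb in KO and 12.9 kb in WT, and ZNF501 its whole 7.49 kb in both.

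**Figure D4:**
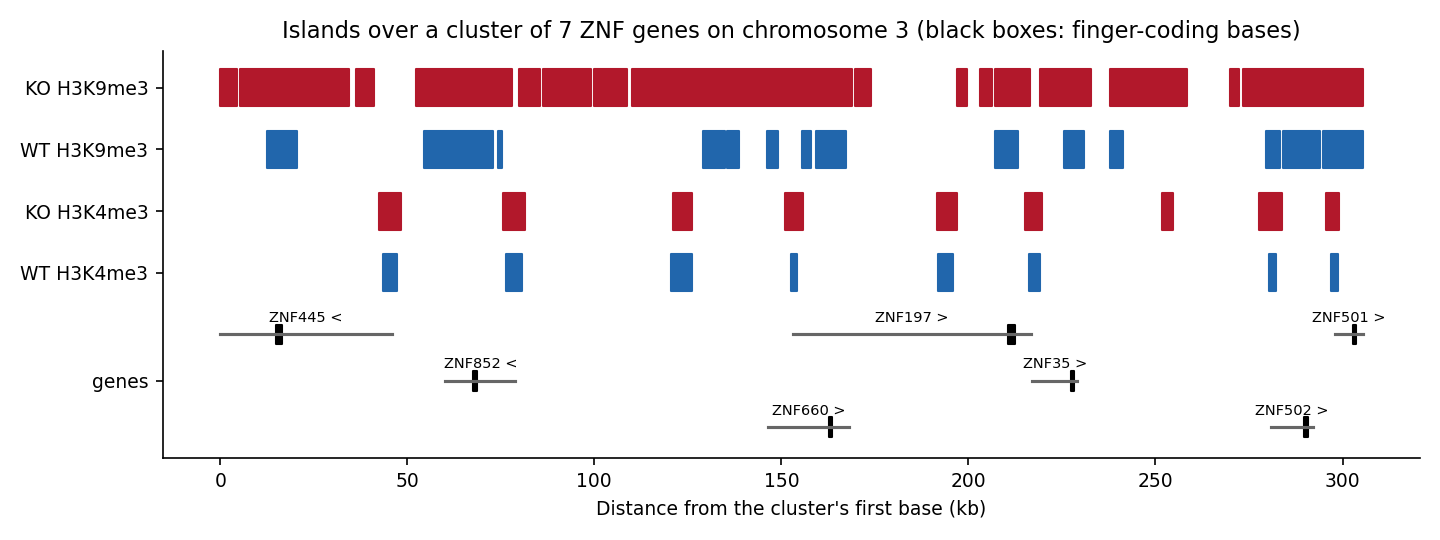
H3K9me3 and H3K4me3 islands in KO and WT over the cluster on chromosome 3, by distance from its first base (x axis, kb); lines are the 7 genes with their direction and black boxes span finger-coding bases. In WT an H3K9me3 island sits on each black box, in KO islands also fill most of the space between, and H3K4me3 islands stand near the starts of most genes in both.

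**Figure D5:**
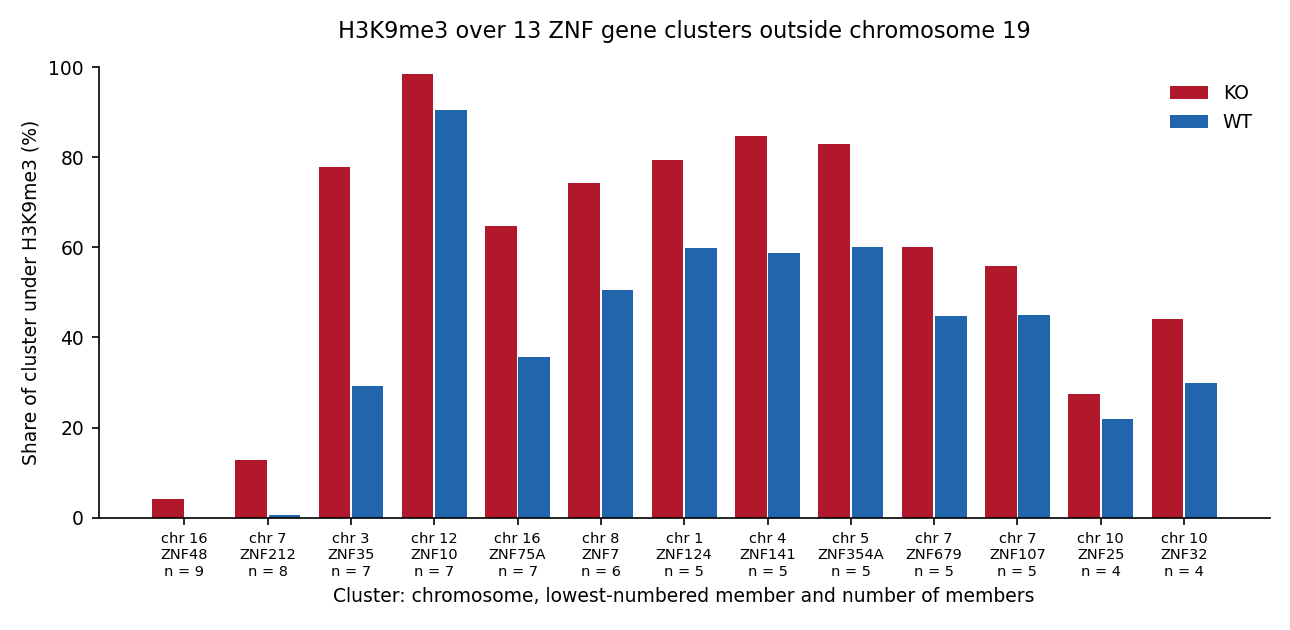
Share of each of 13 clusters inside H3K9me3 islands (y axis, %) in KO and WT, ordered by number of members; labels give chromosome and lowest-numbered member. KO bars are higher in all 13, from 4.16% against 0% in the first to 98.6% against 90.6% in the cluster of ZNF10.

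In each of the 13 clusters the KO length was larger, by 1.09 to 2.67 times in the 11 clusters with more than 2.4 kb covered in WT. Islands were shared between genes, since 9 H3K9me3 islands in KO and 7 in WT touched more than 1 member, and 1 in KO touched 5.

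At promoters (2 kb on both sides of the start) H3K9me3 was found in 88 genes in KO and 49 in WT. KO alone had it in 42 genes (16.8%), where 8.45% of all genes did, and WT alone in 3 (1.2%; ZNF22, ZNF684 and ZNF691), where 0.12% did. The first 4 by number with the mark in both libraries were ZNF7, at 3.2 kb in KO and 0.902 kb in WT, ZNF10, at 4 kb in KO and 3.2 kb in WT, ZNF12, at 3.2 kb in KO and 0.423 kb in WT, and ZNF26, at 4 kb in KO and 1.35 kb in WT. In each of the 4 the KO islands took more of the window. KRAB genes made up 25 of the 42 genes marked in KO alone, among them ZNF197, with 4 kb in KO and 0 kb in WT, ZNF670, with 4 kb in KO and 0 kb in WT, and ZNF785, with 4 kb in KO and 0 kb in WT.

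H3K4me3, the mark of active and poised promoters, stood at nearly the same promoters in KO and WT. It was found in 214 promoter windows in KO and 215 in WT, with 1 gene (0.4%; ZNF232) in KO alone and 2 (0.8%; ZNF239 and ZNF736) in WT alone, against 1.25% and 1.53% of all genes. Within 0.5 kb of the start 83.7% of bases were covered in KO and 84.6% in WT. H3K4me3 and H3K9me3 were found in the same window in 70 genes in KO and 42 in WT, which is 32.7% of H3K4me3 promoters in KO and 19.5% in WT. For other genes these shares were 5.28% in KO and 1.62% in WT, and for ZNF genes of chromosome 19 79.7% in KO and 50.8% in WT. In 65 of the 70 genes in KO and 41 of the 42 in WT the islands of both marks overlapped by at least 1 base. Such overlap was also usual in other genes, at 581 of 641 with both marks in KO and 179 of 198 in WT. Of the 42 promoters with H3K9me3 in KO alone, 30 had H3K4me3 in both libraries.

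The 250 bases before the start are shown for 3 genes that differ in these marks, 5′ to 3′ on the gene's strand in GRCh37, with each CG in capitals. ZNF10 (chr12:133706911-133707160, + strand) had H3K4me3 over 3.84 kb and H3K9me3 over 4 kb of the promoter window in KO, and 3.64 kb and 3.2 kb in WT. ZNF282 (chr7:148892388-148892637, + strand) had H3K4me3 over 4 kb in KO and 3.84 kb in WT and no H3K9me3. ZNF804B (chr7:88388764-88389013, + strand) had neither, and carried H3K27me3 over 4 kb in KO and 2.99 kb in WT.
ZNF10: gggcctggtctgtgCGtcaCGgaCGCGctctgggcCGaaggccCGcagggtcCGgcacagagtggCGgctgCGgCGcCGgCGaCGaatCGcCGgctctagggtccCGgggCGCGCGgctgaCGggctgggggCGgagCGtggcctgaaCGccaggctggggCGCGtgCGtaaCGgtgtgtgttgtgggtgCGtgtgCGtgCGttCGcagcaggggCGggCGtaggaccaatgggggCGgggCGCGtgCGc
ZNF282: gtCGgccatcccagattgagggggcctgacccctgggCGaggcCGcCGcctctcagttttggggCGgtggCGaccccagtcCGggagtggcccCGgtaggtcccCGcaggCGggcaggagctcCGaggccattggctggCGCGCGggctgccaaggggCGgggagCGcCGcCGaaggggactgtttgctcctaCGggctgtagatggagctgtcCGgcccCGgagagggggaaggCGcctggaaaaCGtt
ZNF804B: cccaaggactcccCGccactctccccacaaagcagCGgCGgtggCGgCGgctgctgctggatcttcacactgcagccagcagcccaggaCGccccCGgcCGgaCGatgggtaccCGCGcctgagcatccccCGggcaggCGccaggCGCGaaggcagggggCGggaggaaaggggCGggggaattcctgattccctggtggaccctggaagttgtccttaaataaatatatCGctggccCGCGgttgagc

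CG occurred 37 times in the ZNF10 stretch, 23 times in that of ZNF282 and 20 times in that of ZNF804B, and as many or more were found in 4.2%, 27.3% and 34.9% of all 19229 promoters. The 213 genes with H3K4me3 in both libraries had a median of 18 CG in these 250 bases, and the 34 with it in neither a median of 4, where all genes had 14. At least 10 were found in 80.8% of the first set, 32.4% of the second and 60.8% of all genes. Genes that are not ZNF genes split alike, with medians of 19 and 4. The ZNF genes of chromosome 19 hardly did, with medians of 14.5 and 13. Of the 34 genes without H3K4me3 in the window, 13 had it further inside the body, among them ZNF217, ZNF273, ZNF451, ZNF638 and ZNF689. In ZNF660, also among the 13, the island spanned the start of ZNF197, which overlaps it. Whether the islands in the other bodies mark another start of the same gene was not tested.

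Over gene bodies H3K4me3 was gained in 13 genes (5.2%), where 4.68% of all genes did, and lost in 1 (0.4%; ZNF462), where 2.22% did. Scaled to equal library length the counts were 8 and 2. ZNF804A, a gene associated with schizophrenia, had 18.7 kb in KO and 7.55 kb in WT, ZNF783 13.5 kb in KO and 5.34 kb in WT, ZNF232 10.7 kb in KO and 4.4 kb in WT, and ZNF469 6.83 kb in KO and 2.83 kb in WT. ZNF804A, ZNF783, ZNF232 and ZNF469 were also among the H3K9me3 gains. ZNF462, a gene of a craniofacial developmental syndrome, had 4.15 kb of H3K4me3 in KO and 8.55 kb in WT.

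H3K27me3, the Polycomb mark, was on few of these genes, with 39 bodies in KO and 32 in WT and 6.68% of bases in KO and 5.67% in WT, where other genes had 11.5% in KO and 8.99% in WT. It was gained over 12 bodies (4.8%), where 5.07% of all genes did, and lost over 4 (1.6%), where 2.82% did. At promoters 7 genes (2.8%) had it in KO alone and 3 (1.2%) in WT alone, against 2.9% and 1.88% of all genes. ZNF704 gained most, with 34.8 kb in KO and 3.22 kb in WT, then ZNF273, with 24.5 kb in KO and 8.65 kb in WT, ZNF621, with 15 kb in KO and 0 kb in WT, and ZNF800, with 16.6 kb in KO and 8 kb in WT. ZNF521, a regulator of stem and progenitor cells, lost most, with 17.8 kb in KO and 49.6 kb in WT. ZNF280B had 0 kb in KO and 5.8 kb in WT, ZNF804A 0 kb in KO and 3.75 kb in WT, and ZNF705A 0 kb in KO and 2.4 kb in WT.

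H3R8me2a, an arginine mark less studied than the others, was over 92 bodies in KO and 66 in WT. It was gained over 51 bodies (20.4%) and lost over 19 (7.6%), against 19.9% and 8.19% of all genes, and scaled to equal library length over 40 and 26. At promoters 41 genes (16.4%) had it in KO alone and 16 (6.4%) in WT alone, against 13.4% and 5.51% of all genes. KRAB genes split as 26 gains and 1 loss, and genes without KRAB as 25 gains and 18 losses. Scaled to equal library length the splits were 20 gains and 2 losses with KRAB and 20 gains and 24 losses without, so that the balance turned for genes without KRAB. The difference between these splits was not tested. In KO 77 of the 79 promoters with H3R8me2a also had H3K4me3, and in WT 54 of 54. Most such promoters of other genes did too. There 6283 had both marks and 540 had H3R8me2a without H3K4me3 in KO, and 5154 and 202 in WT.

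The largest H3R8me2a gain was over ZNF341, a transcription factor for STAT3, with 52.2 kb in KO and 0 kb in WT. ZNF469 had 31 kb in KO and 0 kb in WT, ZNF775 24.4 kb in KO and 0 kb in WT, and ZNF783 15.6 kb in KO and 0 kb in WT. The largest losses were over ZNF131, a BTB-domain finger protein, with 11.3 kb in KO and 39.1 kb in WT, and ZNF710, with 4.6 kb in KO and 18.6 kb in WT. ZNF618, the first among H3K9me3 gains, had 0 kb of H3R8me2a in KO and 10.8 kb in WT, and ZNF362 had 9.2 kb in KO and 18.6 kb in WT.

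Among 15 members with developmental and neural roles, 9 gained H3K9me3 over the body and 0 lost it, where 25.1% of all genes gained and 0.894% lost it. The median difference was 5.8 kb, and the median over all genes was 0 kb. These genes are long, with a median of 246 kb. None of their promoters had H3K9me3 in KO or WT, but few promoters of the 18733 other genes did, 1881 in KO and 386 in WT. ZNF516 had 17 kb in KO and 1.4 kb in WT, ZNF804A 25 kb in KO and 8 kb in WT, ZNF365 15.8 kb in KO and 7 kb in WT, and ZNF423, an adaptor in BMP signalling, 18.2 kb in KO and 4.4 kb in WT. ZNF423 was also the member with the most H3K27me3, at 347 kb in KO and 332 kb in WT, and ZNF831 had 131 kb in KO and 112 kb in WT. H3R8me2a was gained over 1 of the 15 bodies and lost over 5, where 19.9% of all genes gained and 8.19% lost it. The losses included ZNF703, with 0 kb in KO and 4.1 kb in WT, and ZNF462, with 2.95 kb in KO and 12.4 kb in WT.

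Among 15 members with general cellular roles, 2 gained H3K9me3 and 1 lost it, against 25.1% and 0.894% of all genes, with a median difference of 0 kb, as over all genes. The gains were ZNF148, a GC-box binding factor, with 13 kb in KO and 0 kb in WT, and ZNF217, an oncogene of breast cancer, with 1 kb in KO and 0 kb in WT, and the loss was ZNF346. All 15 had H3K4me3 in the body in both libraries. ZNF143, an activator of small nuclear RNA genes, had 4.14 kb of H3K4me3 in KO and 3.14 kb in WT and no H3K9me3. ZNF598, a ubiquitin ligase that senses collided ribosomes, had 11.8 kb of H3R8me2a in KO and 0 kb in WT.

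Of 20 genes that work with KRAB proteins in silencing, 19 lie on an autosome. H3K9me3 was gained over 5 of the 19, HDAC1, SETDB1, PPHLN1, MORC2 and EHMT1, and lost over 0, where 25.1% of all genes gained and 0.894% lost it, so the count was near the background. EHMT1, an H3K9 methyltransferase gene, had 135 kb in KO and 15.6 kb in WT. TRIM28, the corepressor that KRAB domains bind, had no H3K9me3 and 3.23 kb of H3K4me3 at its promoter in KO and in WT. Promoter H3K4me3 was found in 16 of the 19 in KO and 17 in WT. Of the 18733 genes that are not ZNF genes, 12150 had it in KO and 12206 in WT. CHD4 had 0 kb in its promoter window in KO and 2.91 kb in WT. Over its body it had 13.2 kb of H3K4me3 in KO and 11.8 kb in WT.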

How the data were processed

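The 8 ChIP-seq island sets, 4 marks in mdig KO and WT BEAS-2B cells with 1 library each, were used. The WT input library was not analysed here. Before deposit, the authors mapped their reads to hg19 (BWA), lengthened each to 200 bp and drew equal numbers of tags at random for samples being compared, and per the labels SICER 1.1 was among the tools. The deposited intervals hold chromosome, start, end and track name, with no count, height or p-value, so depth and precision are unknown. Every column of a library was used.

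Covered bases were counted with Python 3.11.15, numpy 2.4.6 and pandas 2.3.3 over GENCODE 44 (GRCh37) promoters, bodies and 3′ parts. Proteins were translated from the canonical transcript. KRAB domains were found with a profile of 250 A boxes in pyhmmer 0.12.3 (E value under 0.001), and fingers by the spacing of cysteines and histidines. The code was tested on simulated islands with known answers. Figures were drawn with matplotlib 3.10.9.

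Named genes were the 6 largest H3K9me3 gains and losses and the 4 largest of each other mark over the body among those past the rule of size, the 6 genes with most H3K9me3 in the 3′ part in KO and in WT, the first 4 by number with H3K9me3 promoters in both, listed genes and cluster members, with all clusters tied at 7 members described. Genes named for finger bases, promoters, sequences and the limit of the rule were chosen after their values were seen. The members and lists were chosen with earlier results of these data known. Alternatives were other island lengths, merging, scaling, factors, differences and regions.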

Additional observations from a re-analysis of the deposited data

How the results depend on the processing

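Of 126 recomputed counts over the 18 comparisons, 106 stayed within 1.5 times the main count and 20 moved further. Scaling KO to the WT library length moved H3K9me3 to 21 gains and 95 losses over bodies and to 16 gains and 96 losses over the 3′ part, and H3K4me3 to 8 gains and 2 losses over bodies. With KO scaled, a region mostly covered by H3K9me3 in WT could not gain it. A factor of 1.5 gave 34 H3K4me3 gains and 6 losses, a smallest difference of 2 kb 8 gains, the body plus 5 kb upstream 8 gains, and islands of at least 1 kb 2 losses. With promoters of 1 kb on both sides 11 genes had H3K27me3 in KO alone. With 5 kb on both sides 1 gene had H3K9me3 in WT alone and 2 had H3K4me3 in KO alone, and with at least 400 bases required 1 had H3K9me3 in WT alone. Chosen after seeing the data, the start of the canonical transcript left 0 genes with H3K4me3 in KO alone and 1 in WT alone. Leaving out the 77 members that overlap another gene, also chosen after seeing the data, left 32 H3R8me2a gains over bodies, 24 promoters with H3R8me2a in KO alone and 0 with H3K4me3 in KO alone, with fewer genes counted by construction. The causes of the other moves were not tested. No paired analysis was possible because each mark had 1 library per genotype. Without replicates, depths or island heights, no error can be given for a gene, and a stretch without an island may carry a weaker signal.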
